A study of Mus musculus with 10 samples.

Results

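The 9 genes described here, Scd1, Scd2, Fads1, Fads2, Elovl1, Elovl2, Elovl3, Elovl5 and Elovl6, encode desaturases and elongases of fatty acids. They were taken by gene symbol from the 18193 genes that had a probe set annotated to 1 symbol, and where a gene had several such probe sets, the one brightest on average over the 10 arrays stands for it. All 9 lay above the filter on low signal, among 11059 genes kept.

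Liver RNA came from female mice of the inbred strains DBA/2J (D2) and C57BL/6J (B6), which differ throughout the genome. The arrays were Affymetrix Mouse Genome 430 2.0 arrays, and each was hybridised with RNA pooled in equal amounts from 5 mice of 1 strain at 1 time. Mice of both strains received a high-fat/high-cholesterol diet for 1, 4, 12 or 21 weeks, or were taken at week 0. The groups were 4 fed D2 pools, 1 D2 pool at week 0, 4 fed B6 pools and 1 B6 pool at week 0, 10 arrays in all. There was no group on another diet at the later weeks, so time on the diet and age cannot be told apart. The strain difference runs over fed and week 0 pools together. Age at the start, hour of collection and feeding state at collection are not given in the sources used here.

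Fatty acid synthase makes palmitate, a saturated fatty acid. Elongases of the ELOVL family add carbons to the acyl chain in the endoplasmic reticulum, each with its own range of substrates, and desaturases insert double bonds. The stearoyl-CoA desaturases SCD1 and SCD2 make monounsaturated fatty acids, with SCD1 the main form in mouse liver. FADS1 (delta-5) and FADS2 (delta-6) act with ELOVL5 and ELOVL2 to turn the essential fatty acids of the diet into long polyunsaturated ones, and many of these genes are known targets of the transcription factors SREBP-1c and SREBP-2, LXR and PPAR-alpha.

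Upstream sequences were available for 5 of the 9 genes, from RefSeq on GRCm38.p6, an assembly of the C57BL/6J strain. Those of Elovl5, Fads2 and Elovl6 are printed because they belong to the gene with a called strain difference, to the polyunsaturated pathway and to the elongase whose signal lay highest in fed livers relative to week 0. Each is the 250 bases before the annotated start of the gene, 5' to 3' on the strand of the gene, and capitals mark the motifs found. The Elovl5 window is chr9:77917115-77917364 on the plus strand, the Fads2 window chr19:10101504-10101753 on the minus strand, and the Elovl6 window chr3:129532136-129532385 on the plus strand.
Elovl5: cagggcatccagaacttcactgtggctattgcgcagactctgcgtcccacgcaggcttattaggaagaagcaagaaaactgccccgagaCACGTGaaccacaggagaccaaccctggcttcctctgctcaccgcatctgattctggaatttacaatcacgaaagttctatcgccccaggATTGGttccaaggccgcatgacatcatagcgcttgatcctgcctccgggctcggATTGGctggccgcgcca
Fads2: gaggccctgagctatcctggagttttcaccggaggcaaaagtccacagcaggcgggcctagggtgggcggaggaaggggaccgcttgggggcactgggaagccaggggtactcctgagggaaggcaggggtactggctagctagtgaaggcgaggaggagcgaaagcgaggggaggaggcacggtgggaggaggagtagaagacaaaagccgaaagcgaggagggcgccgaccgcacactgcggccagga
Elovl6: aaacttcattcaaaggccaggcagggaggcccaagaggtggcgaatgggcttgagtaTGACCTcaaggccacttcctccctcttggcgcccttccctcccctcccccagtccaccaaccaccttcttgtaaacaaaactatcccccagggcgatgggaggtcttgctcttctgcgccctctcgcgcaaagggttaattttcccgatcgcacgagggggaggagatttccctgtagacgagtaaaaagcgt
5 motifs were searched on both strands: the sterol response element core TCACNCCAC, the NF-Y box CCAAT, the E-box CACGTG, the nuclear receptor site AGGTCA and the D-box TTATGNAA. Of all 32851 windows of this length, 1.05% held the first, 33.8% the NF-Y box, 6.02% the E-box, 14.0% the nuclear receptor site and 3.07% the D-box. The Elovl5 window held 2 NF-Y boxes, both on the minus strand and beginning 71 and 17 bases before the start, and 1 E-box beginning 161 bases before it. The Elovl6 window held 1 nuclear receptor site, 193 bases before the start on the minus strand. None of the 5 motifs' letters was in the Fads2 window or in either Elovl2 window. The 2 Elovl1 windows held 1 NF-Y box in one and 1 nuclear receptor site in the other. The gene bodies of Fads1 and Fads2 lie near each other on chromosome 19 (10182877 to 10196874 and 10062765 to 10101503), as do those of Scd1 and Scd2 (44394450 to 44407709 and 44293676 to 44306864). Whether other genes lie between them was not looked at.

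The 2% trimmed mean signal of the arrays ranged from 56.2 to 89.1 and was lowest in both week 0 arrays, and arrays were quantile normalised before any test. Levels below are log2(normalised signal + 1.05), and differences are on that scale, which understates the change of a gene with low signal. Hepatocyte markers were high on all arrays: the summed normalised signal of 9 was 53400 to 57100 in fed D2 livers, 57200 in the D2 week 0 liver, 54800 to 56800 in fed B6 livers and 59500 in the B6 week 0 liver. These markers lie near the top of the signal range, where quantile normalisation gives every array the same set of values. Apoa1 was at 9130 on every array. Their sum therefore says little on whether hepatocyte content varied. Fewer cells of a type and less RNA per cell cannot be told apart in these pooled tissues.

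The strain comparison asked which transcripts differed between D2 and B6 livers when pools of the same week were set side by side. It called 3 of the 9 genes: the elongase genes Elovl3 and Elovl5 were higher in D2, and the desaturase gene Scd2 was lower in D2. Of all genes tested, 7.98% were called in this comparison at an adjusted p under 0.05. Another 5 of the 9 had an unadjusted p under 0.05 and did not pass after adjustment, and Elovl1 had neither. With the called genes included, 8 of the 9 and 2649 of all 11059 genes had an unadjusted p under 0.05 in limma. The median difference of the 9 genes was 0.45, beside 0.01 over all genes.

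**Figure D1:**
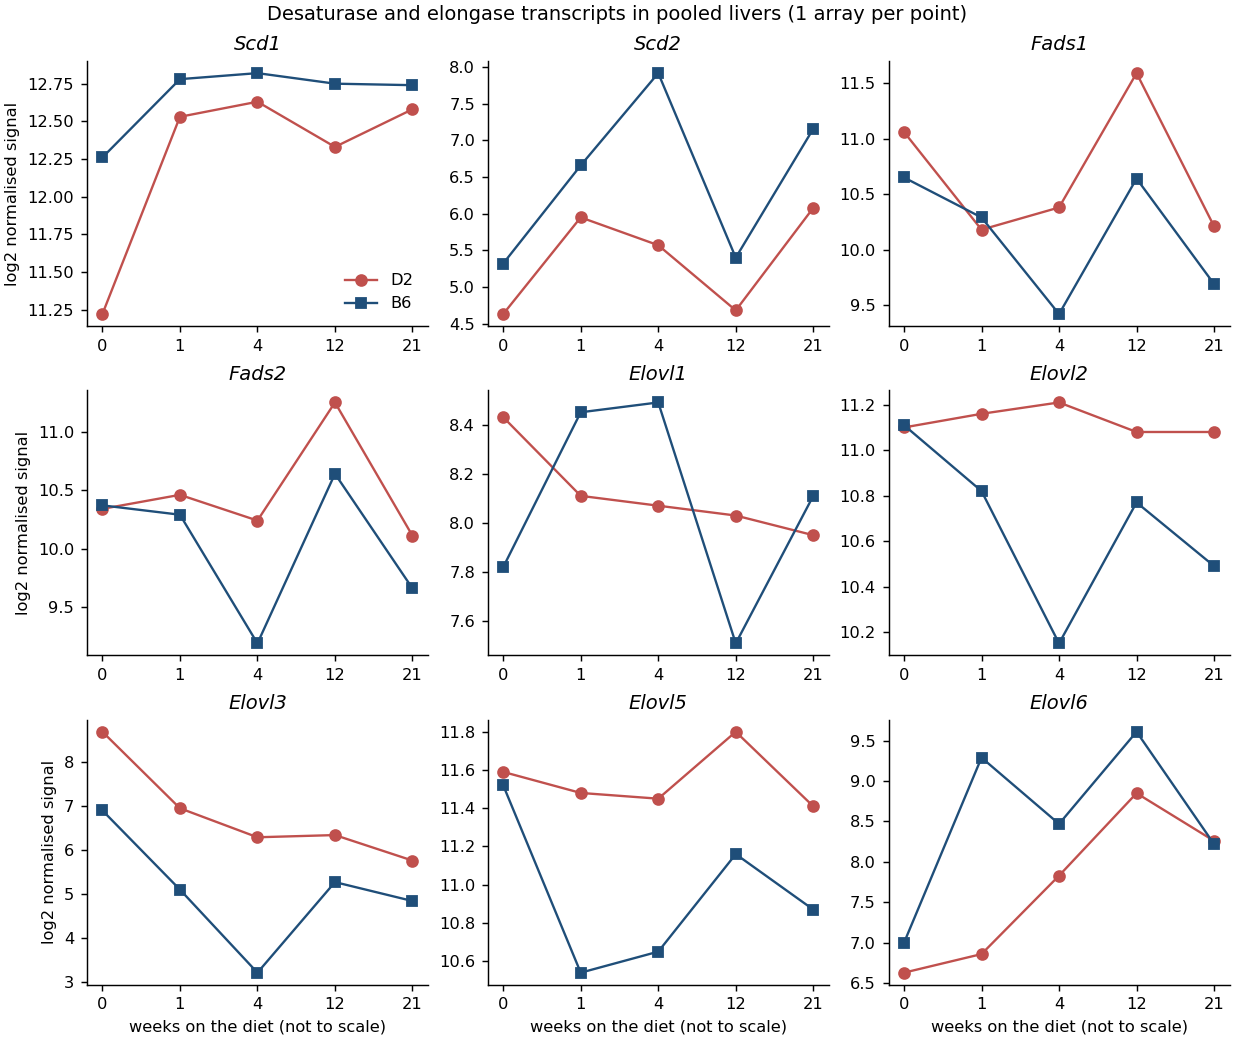
Log2 normalised signal of each gene (y axis, own range in each panel) by weeks on the diet (x axis, not to scale), with 1 array per point, D2 as circles and B6 as squares. Elovl3 and Elovl5 lie higher in D2 and Scd1 and Scd2 lower in D2 at every week.

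ELOVL3 elongates saturated and monounsaturated fatty acids and is known in mouse liver for daily and sex-dependent expression. At weeks 0, 1, 4, 12 and 21, Elovl3 was at 8.69, 6.95, 6.29, 6.34 and 5.76 in D2 livers, against 6.90, 5.10, 3.21, 5.27 and 4.84 in B6 livers. The D2 pool was higher at 5 of 5 weeks, by 0.91 at week 21 up to 3.08 at week 4, although fed D2 levels overlapped the B6 week 0 level. The B6 week 4 level lies below 3.74, the limit used to filter genes on their mean, so the size of differences against it is uncertain. The difference was 1.74 ± 0.29 (SE, 5 arrays per strain, limma adjusted p = 0.0105), a ratio of 3.34. The call held with each array left out in turn (adjusted p up to 0.0395) and was lost without pairing by week (adjusted p = 0.148). The gene had 1 probe set. Of 6 lymphocyte markers with a probe set, 2 passed the filter, Ptprc and Ms4a1. The mean of their log2 levels ran against Elovl3 at r = -0.96 over the 10 arrays. Ms4a1 was dim, with log2 levels of 2.66 to 4.57, around the filter at 3.74. The summed normalised signal of the 6 was 132 to 168 in fed D2 livers, 113 in the D2 week 0 liver, 180 to 917 in fed B6 livers and 156 in the B6 week 0 liver. Most of it came from Ptprc, which marks leukocytes in general, macrophages included, and gave 762 of the 917 in the B6 week 4 liver. Cd3e, a T cell gene, was at 2.70 to 10.2 in D2 livers and 3.81 to 32.3 in B6 livers. The part of these cells in the difference was not tested.

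ELOVL5 elongates the polyunsaturated products of FADS2. Elovl5 was at 11.59, 11.48, 11.45, 11.80 and 11.41 in D2 livers over the 5 weeks, against 11.52, 10.54, 10.65, 11.16 and 10.87 in B6 livers. The strains lay together at week 0 and all 4 fed D2 pools were above all 4 fed B6 pools. The difference was 0.60 ± 0.12 (SE, 5 arrays per strain, limma adjusted p = 0.0224), a ratio of 1.52, and over the 4 fed weeks alone it was 0.73 (adjusted p = 0.00695). The call was lost when an array of week 1, 4, 12 or 21 of either strain was left out (adjusted p 0.0594 to 0.0779, differences 0.51 to 0.61), without pairing by week (adjusted p = 0.0531) and without the variance trend (adjusted p = 0.0636). A second probe set, which correlated with the first at r = 0.98 over the 10 arrays, differed by 0.50 ± 0.13 without passing (adjusted p = 0.0567).

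SCD2 is a stearoyl-CoA desaturase best known from mouse brain and the neonatal mouse. Scd2 was at 4.63, 5.95, 5.57, 4.68 and 6.08 in D2 livers, against 5.32, 6.66, 7.92, 5.40 and 7.16 in B6 livers. The D2 pool was lower at 5 of 5 weeks, and in both strains weeks 0 and 12 were the lowest points. The difference was -1.11 ± 0.25 (SE, 5 arrays per strain, limma adjusted p = 0.0339), a ratio of 0.465. The call was lost when an array of week 0, 1, 12 or 21 of either strain was left out (adjusted p 0.0545 to 0.101, differences -1.21 to -1.11), without pairing by week (adjusted p = 0.231), without the variance trend (adjusted p = 0.0621) and with the mean of the probe sets (-0.47, adjusted p = 0.244). The other 2 probe sets gave -0.83 ± 0.29 and 0.54 ± 0.25, neither called, and correlated with the first at r = 0.90 and r = 0.29.

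Macrophage markers moved with Scd2. Their summed normalised signal over 13 genes was 2270 to 3190 in fed D2 livers, 2540 in the D2 week 0 liver, 2450 to 14100 in fed B6 livers and 2310 in the B6 week 0 liver. The lowest of the 13 was Itgam, at 0.84 to 37.1 normalised signal over the arrays, and none was at 0. Adgre1, which encodes the macrophage antigen F4/80, was at 94.7 to 139 in D2 livers and at 96.1 to 355 in B6 livers. The median change of the 12 markers kept, against week 0 of the strain, was 0.44, -0.04, -0.09 and 0.49 in D2 at weeks 1, 4, 12 and 21, and 1.14, 3.27, 0.13 and 1.53 in B6. Scd2 correlated at r = 0.95 with the macrophage markers over the 10 arrays, which share strain and diet, and at r = 0.86 with stellate cell markers. The stellate sum over 10 genes was 1940 to 2480 in fed D2 livers, 2410 in the D2 week 0 liver, 2700 to 4580 in fed B6 livers and 2480 in the B6 week 0 liver. The part of these cells in the Scd2 difference was not tested. The 3 genes whose pattern was most like that of Scd2 were Lgmn (r = 0.983), which encodes a lysosomal protease, Atp6ap1 (r = 0.980), a subunit of the proton pump of acidic organelles, and Fcgr1 (r = 0.968), an Fc receptor of macrophages.

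**Figure D2:**
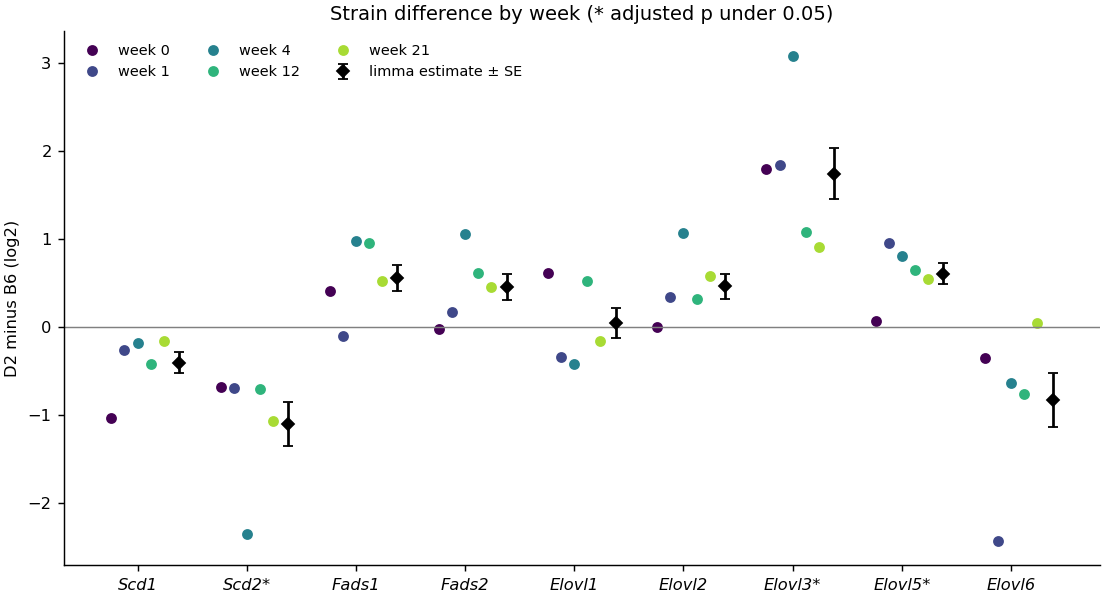
D2 minus B6 difference (log2, y axis) of each gene (x axis) at weeks 0, 1, 4, 12 and 21 (coloured points, 1 pair of arrays each), with the limma estimate ± SE as a diamond. The estimates of Elovl3 (1.74) and Elovl5 (0.60) lie above 0 and that of Scd2 (-1.11) below 0, and the widest spread over weeks is that of Elovl6, -2.43 to 0.04.

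The other genes of the polyunsaturated pathway gave positive strain differences that did not pass. Fads1 was at 11.06, 10.18, 10.38, 11.59 and 10.21 in D2 livers, against 10.65, 10.29, 9.42, 10.64 and 9.69 in B6 livers. The D2 pool was higher at 4 of 5 weeks, and the strains overlapped. Its difference was 0.55 ± 0.15 (SE, limma adjusted p = 0.0679), and without an array of week 1 it was 0.71 and passed (adjusted p 0.0187 or 0.0192). A second, much dimmer probe set of Fads1 gave -0.14 ± 0.30. Fads2 was at 10.34, 10.46, 10.24, 11.25 and 10.11 in D2 livers, against 10.37, 10.29, 9.19, 10.64 and 9.66 in B6 livers, with D2 higher at 4 of 5 weeks and a difference of 0.45 ± 0.15 (adjusted p = 0.105). ELOVL2 makes the precursors of docosahexaenoic acid. Elovl2 stayed between 11.08 and 11.21 in all 5 D2 pools, against 11.11, 10.82, 10.15, 10.77 and 10.49 in B6 livers. The 4 fed B6 pools were below all D2 pools, the B6 week 0 pool was not, and the difference was 0.46 ± 0.14 (adjusted p = 0.0833).

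In the B6 week 4 liver, the one with the highest macrophage markers, Fads1, Fads2, Elovl2 and Elovl3 were each at their lowest level of the 10 arrays. Elovl2 correlated with the macrophage markers at r = -0.94, Elovl5 at r = -0.85, Elovl3 at r = -0.84, and Fads1 and Fads2 both at r = -0.83, over the same 10 arrays. With the stellate cell markers the values were -0.88, -0.85, -0.69, -0.82 and -0.81 in the same order of genes. With the 2 lymphocyte markers kept, Ptprc and Ms4a1, they were -0.88, -0.70, -0.96, -0.64 and -0.64. The part of these cells in the strain differences was not tested.

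Scd1, Elovl1 and Elovl6 were not called between the strains either. Scd1 gave -0.41 ± 0.12 (limma adjusted p = 0.0858), with D2 lower at 5 of 5 weeks, while its second probe set gave -1.08 ± 0.26 and passed (adjusted p = 0.0436). Elovl6 gave -0.83 ± 0.31 (adjusted p = 0.146), with D2 lower at 4 of 5 weeks. Elovl1 gave 0.04 ± 0.17 (adjusted p = 0.914), with D2 higher at 2 of 5 weeks.

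The diet comparison set the 8 fed pools against the 2 week 0 pools, with strain as a term. It called 1 of the 9 genes, Scd1, which was higher in fed livers. Of all genes tested, 0.651% were called in this comparison. The median diet change of the 9 genes was -0.13, beside 0.01 over all genes. Elovl3, Elovl6 and Scd2 had unadjusted p-values under 0.05 and did not pass after adjustment. With the called genes included, 4 of the 9 and 1928 of all 11059 genes had an unadjusted p under 0.05 in limma.

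Scd1 was at 12.53, 12.63, 12.33 and 12.58 in D2 livers at weeks 1, 4, 12 and 21, against 11.22 in the D2 week 0 liver. In B6 it was at 12.78, 12.82, 12.75 and 12.74 in fed livers, against 12.26 in the week 0 liver. All 8 fed pools were above both week 0 pools on this probe set. The change was 0.90 ± 0.14 (SE, 8 fed and 2 week 0 arrays, limma adjusted p = 0.0234), a ratio of 1.87. It lost its call without the D2 week 0 array (0.51, adjusted p = 0.154) or the D2 week 4 array (0.87, adjusted p = 0.0501), with median centring (0.79, adjusted p = 0.0761), with centring on the genes kept (0.57, adjusted p = 0.187) and without the variance trend (adjusted p = 0.0556).

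Within D2, Scd1 was the 1 gene of the 9 called, where 0.118% of all genes were. Its change was 1.29 ± 0.12 (SE, 4 fed arrays and 1 week 0 array, limma adjusted p = 0.00315), a ratio of 2.45. The call held with each other array left out, and was lost with median centring (1.34, adjusted p = 0.0552), centring on the genes kept (1.09, adjusted p = 0.133) and the mean of the probe sets (1.84, adjusted p = 0.0550). Within B6 none of the 9 was called in this fit, where 0.118% of all genes were. Scd1 gave 0.51 ± 0.12 there (adjusted p = 0.157). The difference between the 2 diet changes of Scd1 was 0.78 ± 0.16 (adjusted p = 0.383), so it was not shown that the strains responded differently. That comparison called none of the 9 genes, where 0.00904% of all genes were called.

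The probe set used for Scd1 lay at the 99.9th percentile of all probe sets by mean level, and its deposited signal was 5576.6 to 6565.5 in fed D2 livers, 2022.4 in the D2 week 0 liver, 6891.8 to 7181.1 in fed B6 livers and 4285.5 in the B6 week 0 liver. The second probe set of Scd1 lay lower, moved further and varied more between fed weeks. It was at 9.78, 10.50, 9.27 and 10.63 in fed D2 livers, against 7.65 in the D2 week 0 liver. In B6 it was at 11.36, 11.13, 10.70 and 10.51 in fed livers, against 9.54 at week 0. Fed D2 pools spanned the B6 week 0 level on this probe set. Its diet change was 1.89 ± 0.35 (limma adjusted p = 0.0434), a ratio of 3.71, and the 2 probe sets correlated at r = 0.95. Within D2 the second probe set changed by 2.40 ± 0.47 and within B6 by 1.39 ± 0.47, neither of them called. The genes most like Scd1 over the 10 arrays were Lama1 (r = 0.975), a laminin chain gene, Sipa1 (r = 0.971), which encodes a GTPase-activating protein, and Entpd2 (r = 0.953), which encodes an enzyme that hydrolyses extracellular nucleotides.

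Scd2 levels, given above, were higher than week 0 of the same strain on all 8 fed arrays, by 0.05 to 1.45 in D2 and by 0.07 to 2.59 in B6. The diet change was 1.20 ± 0.53 and was not called (limma adjusted p = 0.280). It passed on the values as deposited (1.68, adjusted p = 0.0306).

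**Figure D3:**
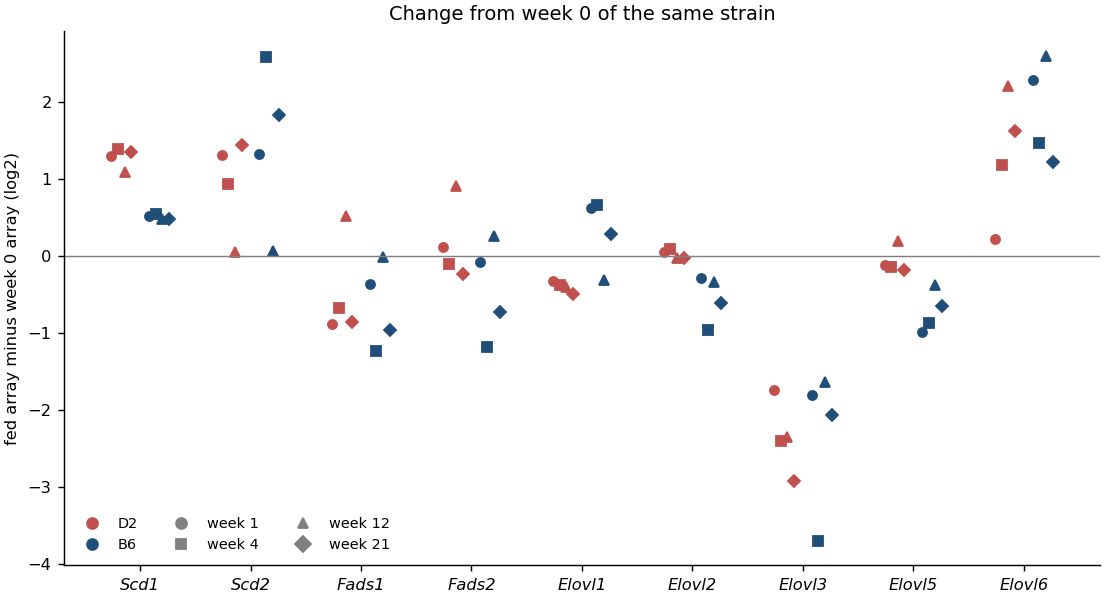
Fed array minus the week 0 array of the same strain (log2, y axis) for each gene (x axis), with D2 left of B6 and weeks as marker shapes. Scd1, Scd2 and Elovl6 lie above 0 and Elovl3 below 0 on all 8 fed arrays, Scd2 by as little as 0.05 and 0.07 at week 12, whereas Elovl5 and Elovl2 lie below 0 on all 4 B6 arrays and near 0 on the D2 arrays.

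Elovl3 had the largest diet change of the 9 genes, close to the threshold and on either side of it with the settings. Its fed levels, given above, were below the week 0 level of the same strain on 8 of 8 arrays, by -2.93 to -1.74 in D2 and by -3.70 to -1.64 in B6. The diet change was -2.33 ± 0.46 (limma adjusted p = 0.0533), a ratio of 0.199, and the changes in D2 and B6 were -2.36 ± 0.68 and -2.30 ± 0.68. Without the B6 week 4 array the change was -2.10 and passed (adjusted p = 0.00886), as it did with a pseudocount of 16 (-1.94, adjusted p = 0.0216), a floor of 16 (-2.25, adjusted p = 0.0179), median centring (-2.18, adjusted p = 0.0387) and the values as deposited (-1.82, adjusted p = 0.00840). It also passed without _x or _s probe sets (adjusted p = 0.0493) and in a fit over 19558 probe sets (adjusted p = 0.0483). The most similar genes were Sult5a1 (r = 0.953), a sulfotransferase gene, Apbb1 (r = 0.950), an adaptor protein gene, and Htr1b (r = 0.947), a serotonin receptor gene.

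Of 12 genes of the circadian clock kept, 4 were higher and 1 was lower in fed livers and 7 were not called, where 0.651% of all genes were. Dbp, a clock output transcription factor, was at 10.24, 10.10, 10.53 and 10.33 in fed D2 livers, against 5.97 at week 0, and at 7.84, 9.64, 9.94 and 8.94 in fed B6 livers, against 5.58 at week 0. Across the 10 arrays Dbp correlated at r = 0.61 with Scd1 and at r = -0.45 with Elovl3. Between the strains, 2 of the 12 clock genes were called, both higher in D2, where 7.98% of all genes were called. They were Nr1d1 (1.16 ± 0.23, limma adjusted p = 0.0229) and Per3 (0.94 ± 0.22, adjusted p = 0.0392). Dbp did not pass (1.05 ± 0.28, adjusted p = 0.0600). The part of the hour of collection in the diet changes and in the strain differences was not tested.

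ELOVL6 elongates palmitate to stearate, the step before SCD1. Elovl6 was at 6.86, 7.83, 8.85 and 8.26 in fed D2 livers, against 6.63 at week 0. In B6 it was at 9.29, 8.47, 9.61 and 8.22 in fed livers, against 7.0 at week 0. Each fed pool was above the week 0 pool of its strain, though the D2 week 1 pool was below the B6 week 0 pool. The change was 1.61 ± 0.46 (limma adjusted p = 0.121), a ratio of 3.04. Elovl6 correlated at r = 0.91 with Fasn, the fatty acid synthase gene, and at r = 0.62 with Srebf1, which encodes SREBP-1. Its 3 most similar genes were 2210408K08Rik (r = 0.955), Cbx5 (r = 0.950), a heterochromatin protein gene, and Psenen (r = 0.914), a gamma-secretase subunit gene. Fasn was at 8.06, 9.0, 10.23 and 9.14 in fed D2 livers, against 8.73 at week 0, and at 10.50, 9.78, 10.16 and 9.11 in fed B6 livers, against 8.81 at week 0. Its diet change was 0.73 ± 0.47 (adjusted p = 0.444), and that of Srebf1 was 1.66 ± 0.46 (adjusted p = 0.110).

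Fads1 and Fads2 varied widely between fed weeks. Against the week 0 pool of its own strain, Fads1 was lower in 3 of 4 fed D2 pools and in 4 of 4 fed B6 pools, with D2 week 12 the one above. Fads2 was higher in 2 of 4 fed D2 pools and in 1 of 4 fed B6 pools. The diet change of Fads1 was -0.56 ± 0.37 (limma adjusted p = 0.460), and that of Fads2 was -0.13 ± 0.36 (adjusted p = 0.883), with the sign turned to 0.27 on the values as deposited. Over the 10 arrays the 2 genes correlated at r = 0.91, and at r = 0.88 with the strain means removed. Both were highest in the D2 week 12 liver, and among fed B6 livers both were highest at week 12 and lowest at week 4.

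Genes of sterol synthesis had the same high array. The median change of 17 such genes against week 0 was -2.02, -1.78, 0.96 and -2.04 in D2 at weeks 1, 4, 12 and 21, and -1.08, -2.10, -1.13 and -1.99 in B6. None of the 17 was called by limma in the diet comparison, and 16 were above week 0 in the D2 week 12 liver. In the diet comparison 7 of the 17 had an unadjusted p under 0.05 in limma, beside 1928 of all 11059 genes. Sqle, which encodes squalene epoxidase, was at 4.58, 4.36, 9.27 and 3.99 in fed D2 livers, against 8.09 at week 0. Insig1, a sterol sensor gene, was at 7.64, 8.52, 10.08 and 8.29 in the same fed livers, against 9.19 at week 0. In fed B6 livers Sqle was at 5.0, 4.50, 4.76 and 3.80, against 7.97 at week 0. Insig1 was at 8.70, 8.43, 9.26 and 6.97 there, against 8.94. At B6 week 12, where Fads1 and Fads2 were highest among fed B6 livers, Sqle was below week 0 and Insig1 above it. Of the 17 sterol synthesis genes, 3 were above week 0 on that array. The part of sterol regulation in the levels of Fads1 and Fads2 was not tested. Fads1 correlated at r = 0.83 with Sqle and r = 0.81 with Insig1, and Fads2 at r = 0.62 and r = 0.66. Among the genes most like Fads1 was Pmvk (r = 0.935), a gene of the mevalonate pathway. The others were Slc25a44 (r = 0.954), a mitochondrial carrier gene, and Tmem97 (r = 0.948), a sigma-2 receptor gene. Those most like Fads2 were Pctp (r = 0.951), a phosphatidylcholine transfer protein gene, Mgme1 (r = 0.923), a mitochondrial exonuclease gene, and Nudt13 (r = 0.911). Scd2 and Fads1 ran in opposite directions (r = -0.93, and -0.92 with strain means removed).

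**Figure D4:**
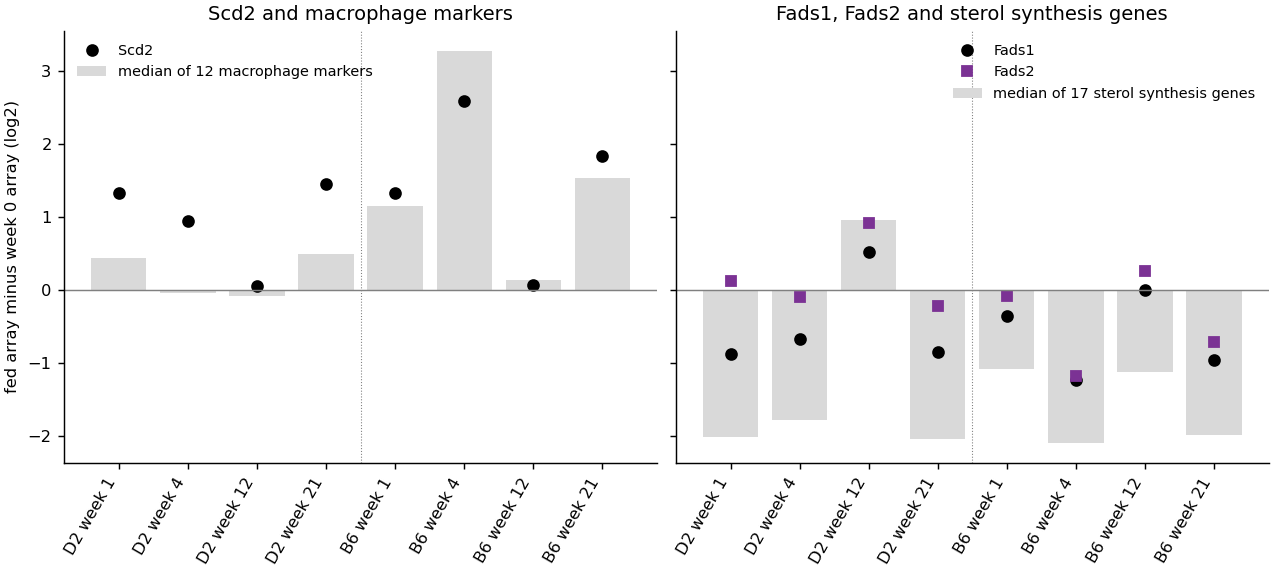
Fed array minus the week 0 array of the same strain (log2, y axis) on each fed array (x axis). Left, Scd2 as points over the median of 12 macrophage markers as bars; right, Fads1 and Fads2 as points over the median of 17 sterol synthesis genes as bars. The B6 week 4 array is highest on the left (Scd2 2.59, markers 3.27), and the D2 week 12 array is highest on the right (sterol genes 0.96, Fads2 0.91, Fads1 0.52).

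Elovl5, Elovl2 and Elovl1 did not pass in any diet comparison. On the values as deposited the diet changes of Elovl2 (-0.26 ± 0.17) and Elovl1 (-0.04 ± 0.24) turned to 0.09 and 0.48. Elovl5 changed by -0.06 ± 0.22 in D2 (limma adjusted p = 0.954) and by -0.72 ± 0.22 in B6 (adjusted p = 0.266), and the difference of these changes was 0.66 ± 0.31 (adjusted p = 0.845). For Elovl2 the values were 0.03 ± 0.22 in D2, -0.55 ± 0.22 in B6 and 0.58 ± 0.31 for the difference (adjusted p = 0.860). All 4 fed B6 arrays were below week 0 for both genes, and the D2 arrays lay within 0.20 of it. ELOVL1 elongates saturated and monounsaturated very long acyl chains. Elovl1 was at 8.11, 8.07, 8.03 and 7.95 in fed D2 livers, against 8.43 at week 0, and at 8.45, 8.49, 7.51 and 8.11 in fed B6 livers, against 7.82 at week 0. The fed D2 pools were all below their week 0 pool, 3 of 4 fed B6 pools were above theirs, and the difference of the 2 changes was -0.71 ± 0.44 (adjusted p = 0.865).

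The genes most like Elovl5 were Sult3a1 (r = 0.982), a sulfotransferase gene, Evc (r = 0.965), a gene of the cilium, and Tecr (r = 0.953). Those most like Elovl2 were Inhbc (r = 0.976), an inhibin chain gene, Slco1a1 (r = 0.961), an organic anion transporter gene, and Kyat1 (r = 0.943), an aminotransferase gene. For Elovl1 they were Tmem167 (r = 0.917), Elmo2 (r = 0.907) and Rmnd5b (r = 0.899).

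Over the fed weeks none of the 9 genes had a called trend, and none of all genes tested did (0%). In limma 523 of all genes and none of the 9 had an unadjusted p under 0.05, and the slopes of the 9 ran from -0.09 to 0.14 per doubling of the weeks.

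Partner genes encode enzymes that complete the elongation cycle or feed it. Of 17 kept, 1 was higher and 2 were lower in D2 and 14 were not called, where 7.98% of all genes were called. None was called for the diet, where 3 of the 17 and 1928 of all 11059 genes had an unadjusted p under 0.05 in limma. Tecr, the enoyl reductase of the last step, was at 10.66, 10.37, 10.58, 10.95 and 10.48 in D2 livers, against 10.57, 9.93, 9.89, 10.19 and 9.93 in B6 livers, higher in D2 by 0.51 ± 0.10 (limma adjusted p = 0.0243). Hacd2, a dehydratase of the step before it, was at 9.15, 8.80, 8.80, 8.81 and 9.07 in D2 livers, against 9.77, 9.84, 9.56, 9.38 and 9.49 in B6 livers, a difference of -0.68 ± 0.10 (adjusted p = 0.00616). No D2 pool reached a B6 pool for Hacd2, and for Tecr the fed pools of the strains did not overlap. Hsd17b12, the ketoacyl reductase, differed by -0.30 ± 0.07 (adjusted p = 0.0467).

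Among 13 genes of lipogenesis kept, 12 were not called between the strains and 1 passed, beside the same 7.98% of all genes. It was Acaca, the acetyl-CoA carboxylase that makes malonyl-CoA for synthesis and elongation. It was lower in D2 by -0.93 ± 0.15 (limma adjusted p = 0.00887), at 6.21, 6.39, 7.0, 7.29 and 7.36 in D2 livers, against 7.27, 7.90, 7.68, 8.20 and 7.86 in B6 livers. Among 12 regulators, 2 passed and 10 did not, both higher in D2: Scap, the escort of SREBP (0.63 ± 0.09, adjusted p = 0.00481), and Ppara, the PPAR-alpha gene (0.82 ± 0.18, adjusted p = 0.0333). No gene of these 2 lists was called for the diet by limma. There 4 of the 13, 6 of the 12 and 1928 of all 11059 genes had an unadjusted p under 0.05. Between the strains, 1 of the 17 sterol synthesis genes was higher, Fdft1 (0.78 ± 0.17, adjusted p = 0.0285), and 1 was lower, Sc5d (-1.34 ± 0.22, adjusted p = 0.00930), and the other 15 were not called.

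Probe sets of a gene did not always move together. In a fit over 19558 probe sets, every probe set of Scd1, Scd2, Fads2, Elovl1, Elovl5 and Elovl6 above the filter had the same sign of the diet change as the one used. The probe set used for Elovl1 is of a type that can also bind related sequences. In Fads1 the second probe set, much dimmer, gave 0.42 ± 0.51 against -0.56 ± 0.36 for the one used, and they correlated at r = 0.50. The dimmest probe set of Elovl6 correlated with the first at r = 0.48 and gave 0.57 ± 0.56. Fads2 was steady between the strains: its 3 probe sets gave 0.45 ± 0.14, 0.47 ± 0.14 and 0.50 ± 0.15 for D2 minus B6. Signs differed there in other genes, as given above for Scd2. The second probe set of Fads1 gave -0.14 ± 0.30, against 0.55 ± 0.15 for the one used. The dimmest of Elovl6 gave 0.20 ± 0.31, against -0.83 ± 0.30, and 1 of Elovl1 gave -0.02 ± 0.16, against 0.04 ± 0.17.

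**Figure D5:**
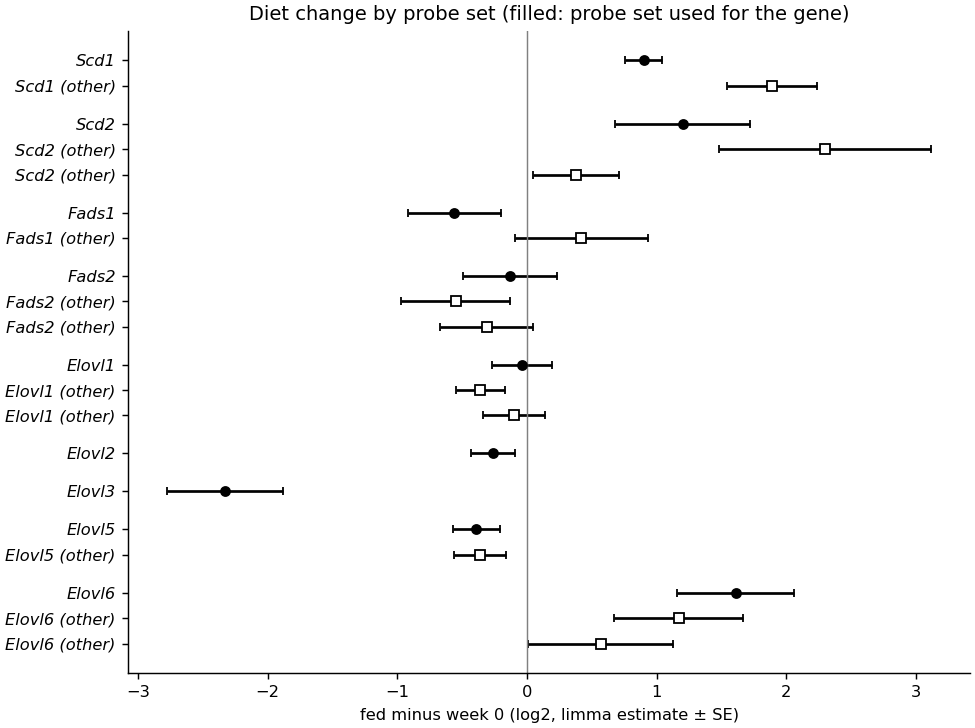
Diet change (fed minus week 0, log2, limma estimate ± SE, x axis) of every probe set above the filter for each gene (y axis), filled for the probe set used and open for the others. The 2 probe sets of Scd1 lie at 0.90 and 1.89 and those of Fads1 at -0.56 and 0.42, and the single probe set of Elovl3 lies at -2.33.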

How the data were processed

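The authors deposited signal intensities on a linear scale, computed with GCOS, per the submitters' processing notes; its version and settings are not given in the sources used here. Of 45101 probe sets, 64 were controls and 34945 had 1 gene symbol, from GEO's platform annotation. Arrays were quantile normalised, because trimmed means differed by a ratio of 1.59, and put on the scale log2(signal + 1.05), where 1.05 is the 10th percentile over all deposited values. Each gene took its probe set with the highest mean, kept above the 50th percentile of probe-set means (3.74).

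Tests were run in R 4.3.3 with limma 3.58.1 (trend), adjusted by Benjamini-Hochberg over the 11059 genes at 0.05. They comprised the strain difference with week as a block (4 residual degrees of freedom), the diet change with strain as a term (7), diet changes within strains and their difference (6), and a slope on log2 weeks over fed arrays (5). Weeks served as replicates. In the fits of diet changes within strains, the single week 0 array is taken to have the spread of the fed arrays. That spread is estimated over both strains together, not within each strain. In the strain comparison the p-values therefore measure how far the D2 minus B6 difference varied between weeks. In the other comparisons they measure the spread between pools of different weeks, around the slope in the case of the trend. The number of pools limits the precision throughout. The fits were tested on simulated data. The members, the lists and the genes named from them (those that passed, otherwise up to 4 of a list, a fixed set of lipid and clock genes, and the 3 genes most correlated with each member) were chosen with earlier results of these data known, and not every gene this allows is printed. Of 150 list entries, 15 were not analysed here. Alternatives covered the pseudocount, floor, scaling, filter, probe sets, variance model, week block and each array left out; the probe-set tests and the leaving out of both arrays of week 12 or week 0 in the strain comparison were added after seeing the data.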

Additional observations from a re-analysis of the deposited data

Results flagged for a closer look

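Fads1 in the D2 week 12 liver stood apart from the other fed D2 livers. It was at 11.59 there, while the other 3 were at 10.18 to 10.38, a gap of 0.858 of the group's range above the critical value of Dixon's test for 4 values. In all, 18 groups of 4 fed arrays were looked at and 1 was flagged, and chance flags about 1 in 20. The second probe set of the gene was not looked at by this test.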

How the results depend on the processing

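The strain calls rest on pairing by week and on few arrays, and the diet calls on 1 week 0 pool per strain and on the scaling, whose choice moves the median diet change of all genes to 0.52 as deposited, 0.16 with median centring and -0.05 with centring on the genes kept, against 0.01. Of 935 recomputed values, 857 kept their direction and side of the threshold, 12 newly passed, 33 no longer passed and 33 changed sign; the cause was not tested. The labels give no replicate numbers, so the one pairing tried was by week, in the strain comparison.

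Members called between the strains were 3, but 1 with no trend and 0 without the week block (with 775 of all genes). There was 1 without both week 12 arrays (425 genes, against 882). With single arrays left out 1 to 2 were called (386 to 714 genes), Fads1 being among them without week 1. With a filter at the 75th percentile 1 was called. Elovl3 and Scd2, at percentiles 74.3 and 74.4 of probe sets, fell under that filter and were not tested. Members called for the diet were 1, but 2 with pseudocount 16, floor 16 or no _x or _s probe sets, 4 as deposited, 0 centred on the genes kept or with no trend, and 0 to 2 with single arrays left out. Genes called for the diet were 72, but 4990 as deposited (4949 higher and 41 lower, against 46 and 26), 313 median centred (276 higher and 37 lower) and 14 to 94 with single arrays left out. Centred on the genes kept, 35 were higher and 39 lower, with pseudocount 16 34 and 31, and with floor 16 44 and 43.

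Within D2 the called member was lost (0) with median centring, centring on the genes kept and the mean of probe sets. Genes called within D2 were 13, but 2 with pseudocount 16, 20 with floor 16, 45 as deposited, 5 centred on the genes kept, 8 with no filter, 2 at the 75th percentile, 38 with no trend and 6 to 21 with single arrays left out. Genes called within B6 were 13, but 0 with pseudocount 16, 2 with floor 16, 1946 as deposited (with 2 members), 0 centred on the genes kept, 0 at the 75th percentile, 33 with no trend and 0 to 22 with single arrays left out. The 1 gene called for the difference of diet changes became 0 with pseudocount 16, floor 16, the mean of probe sets, no _x or _s probe sets or no trend, and 0 to 1 with single arrays left out.

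The following values turned sign, none of them called in the form reported. The Elovl1 strain difference (0.04) was -0.02 as deposited, -0.08 without both week 12 arrays, -0.10 without both week 0 arrays and -0.10 to 0.16 with single arrays left out. The Elovl1 diet change (-0.04) was 0.48 as deposited, 0.12 median centred, 0.32 by the mean of probe sets, 0.07 without both week 12 arrays and -0.39 to 0.32 with single arrays left out; within D2 it was 0.06 as deposited and within B6 -0.26 with no _x or _s probe sets. As deposited, the diet change was 0.09 for Elovl2, 0.27 for Fads2, 0.18 for Elovl5 within D2 and 0.03 for Fads2 within B6. Elovl2 within D2 was -0.17 centred on the genes kept, and by the mean of probe sets Fads1 and Fads2 within D2 were 0.37 and -0.12. The difference of diet changes of Elovl3 was 0.03 median centred. With single arrays left out, the diet change ran from -0.55 to 0.03 for Elovl2, from -0.43 to 0.18 for Fads2 and, within D2, from -0.07 to 0.31 for Fads2, and the difference of diet changes from -0.52 to 0.16 for Elovl3 and from -0.16 to 0.38 for Fads1.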
